A study of Homo sapiens with 6 samples.

Results

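The genes described here are 10 transcriptional outputs and feedback inhibitors of the RAS-ERK pathway, taken by symbol from a fixed list and found among the 62703 Ensembl gene IDs of the deposited tables. They are the ERK phosphatase genes DUSP4, DUSP5 and DUSP6, the Sprouty genes SPRY1, SPRY2 and SPRY4, the related genes SPRED1 and SPRED2, the transcription factor gene ETV5, and PHLDA1. All 10 IDs matched and all 10 had enough counts to be tested. RNA was sequenced from H929 (NCI-H929), a human multiple myeloma cell line labelled wild type. Cells were held for 24 h in Mi-2 at 1 µM, a compound that inhibits the MALT1 protease, in 3 libraries (called treated here), or in the solvent DMSO in 3 others (called controls). It is a single cell line at a single dose and time, and the libraries are not stated to be separate cultures, so p-values measure the spread between these libraries only, which may be technical.

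RAS proteins switch on the kinases RAF, MEK and ERK in turn, and active ERK induces a set of genes that includes brakes on the pathway itself. DUSP6 removes phosphate from ERK in the cytoplasm, DUSP4 and DUSP5 do so in the nucleus, and Sprouty and SPRED proteins act on the steps at and above RAF. In multiple myeloma RAS genes are often mutated, and H929 carries an activating mutation of NRAS. The levels of these genes are widely used as a readout of ERK activity. MALT1 is best known for its part in NF-κB signalling.

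Start regions were examined because ETV5 encodes an ETS factor, a family that recognises sequences around GGAA, and because ERK acts on such factors. RefSeq starts (GRCh38.p14) were found for 7 of the 10 genes, in 11 windows of 250 bases before the start. The ETS-type sequence CCGGAA, searched on both strands, was in 3 of the 11 windows and in 14.5% of all 35116 windows of that length. It lay in the PHLDA1 window (89 bases before the start), 1 SPRY2 window (142 bases) and 1 SPRY1 window (67 bases), and of these genes only PHLDA1 was called lower in treated libraries. The shorter GGAA was in all 11 windows and in 92.7% of all windows. In the 30-base stretches shown, read 5′ to 3′ on each gene's own strand, capitals mark the match. The PHLDA1 and SPRY1 windows overlap an annotated exon and UTR of the same gene in GENCODE 29, and the SPRY2 window overlaps no annotated gene.
PHLDA1 (chr12:76031848-76031877, minus strand): gaggagaggagtTTCCGGggctcgggtccg
SPRY1 (chr4:123398307-123398336, plus strand): tgccctccgcagCCGGAAgggggccgcggg
SPRY2 (chr13:80341251-80341280, minus strand): tccctgcctcctCCGGAAaggcgagggcgc

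SPRY4 was called lower too. Its whole window is shown, since it holds 2 matches of GGAA but none of the longer CCGGAA. Capitals mark GGGCGG, a site type of SP and KLF factors. GGGCGG was in 5 of the 11 windows and in 42.6% of all windows.
SPRY4 (chr5:142324248-142324497, minus strand): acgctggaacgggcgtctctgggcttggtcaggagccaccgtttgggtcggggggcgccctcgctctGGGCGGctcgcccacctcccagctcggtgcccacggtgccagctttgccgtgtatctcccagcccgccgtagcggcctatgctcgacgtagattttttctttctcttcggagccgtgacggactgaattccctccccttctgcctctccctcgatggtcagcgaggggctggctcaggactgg
The AP-1 sequence TGANTCA, the CRE sequence TGACGTCA and the E-box CACGTG were in none of the 11 windows, against 6.57%, 1.65% and 6.34% of all windows, and no 2 matches of the 5 longer sequences overlapped. Matches are descriptions of these letters only. A start for ETV5, DUSP4 or DUSP5 was not used here.

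Total estimated counts ran from 19980700 to 23756700 per library. Mitochondrially encoded RNAs took 4.47 to 4.98% of counts in controls and 5.20 to 5.34% in treated libraries. Of 15 plasma cell markers 13 had enough counts to be tested, with JCHAIN, IGKC, XBP1 and IRF4 the highest, while CD27 and TNFRSF13B had too few and IGHA1 had 6.96 ± 2.05 CPM in controls (normalised counts scaled to library size, mean ± SD, n = 3). Their summed levels were 15180 to 17440 CPM in controls and 16270 to 17430 CPM in treated libraries. TNFRSF17 (BCMA), at 395 ± 60.0 CPM in controls and 364 ± 45.0 CPM in treated libraries, did not pass the test, and SDC1 (CD138) fell from 581 ± 97.2 to 360 ± 55.1 CPM (log2 fold change -0.69 ± 0.15 SE). Among these markers CD38 (-0.86) was also called lower, and MZB1 (0.70), IRF4 (0.35) and IGHA1 (1.02) were called higher, with a median of 0.067 over the 13. Of 12 T and NK cell markers only CD3E had enough counts to be tested, of 12 myeloid markers only CD68, of 14 stromal, endothelial and epithelial markers 4, and of 10 erythroid and platelet markers 3. CD3E, CD68, PECAM1 and KRT18 were called higher with Mi-2. Summed levels of T and NK markers were 27.5 to 34.0 CPM in controls and 40.3 to 46.3 CPM in treated libraries. Those of myeloid markers were 38.3 to 48.4 and 69.4 to 95.2 CPM, and those of stromal, endothelial and epithelial markers 66.1 to 80.8 and 92.7 to 109 CPM. Those of erythroid and platelet markers were 0.597 to 6.13 CPM in controls and 1.27 to 7.17 CPM in treated libraries. CD3E made up most of the T and NK sum (mean 29.5 CPM in controls and 41.7 CPM in treated libraries). CD68 made up most of the myeloid sum (43.5 and 83.7 CPM), and PECAM1 most of the stromal, endothelial and epithelial sum (64.0 and 81.7 CPM). CD3D, CD8A, ELANE, TYROBP, COL1A2, COL3A1, CDH5, KDR, PPBP, PF4 and AHSP had no count in any library. The part of other cells and of mitochondrial RNA in the results was not tested.

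Per length, on the TPM scale, the phosphatase genes stood far above the rest. DUSP5, a nuclear phosphatase specific for ERK, had the highest level, 286 ± 38.1 TPM over the 6 libraries (mean ± SD), and 97.6% of tested genes had a lower mean. It alone made up 73.1% of the summed TPM of the 10 genes. DUSP6 followed at 45.5 ± 9.59 TPM and DUSP4 at 29.9 ± 4.69 TPM. The range of DUSP5 (232 to 325 TPM) was clear of that of DUSP6 (34.7 to 61.6 TPM), while those of DUSP6 and DUSP4 (23.6 to 38.0 TPM) overlapped. ETV5 came next at 9.56 ± 2.35 TPM, below the whole range of DUSP4. Below it no neighbours in the order had separate ranges: SPRED2 at 5.97 ± 0.958 TPM, SPRED1 at 4.93 ± 0.994 TPM, PHLDA1 at 3.13 ± 1.62 TPM, SPRY4 at 2.77 ± 0.561 TPM, SPRY1 at 1.95 ± 0.867 TPM and SPRY2 at 1.37 ± 0.176 TPM. The summed TPM of the 3 phosphatase genes was 413, 371 and 304 in controls 1 to 3 and 407, 360 and 313 in treated libraries 1 to 3. For the other 7 genes it was 36.4, 35.5 and 31.9 in controls and 26.9, 23.3 and 24.0 in treated libraries, so that every treated library lay under every control. Among these 7, mean TPM differed most for ETV5 (11.3 in controls, 7.80 in treated libraries) and PHLDA1 (4.57 and 1.69). Over all 10 genes the sums overlapped, at 449, 407 and 336 in controls and 434, 383 and 337 in treated libraries. How often sums of other sets of genes lie apart was not counted.

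**Figure D1:**
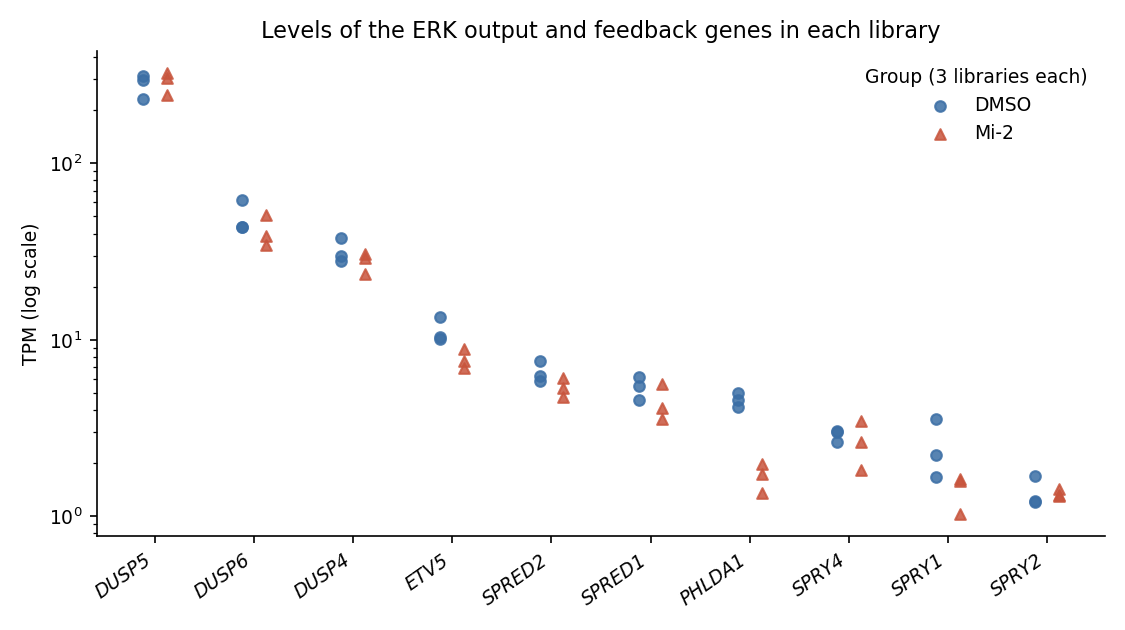
TPM of each gene (log axis) in the 3 controls (circles) and the 3 treated libraries (triangles), ordered by mean level. DUSP5 lies between 232 and 325 TPM in every library, above the other genes, and PHLDA1 shows the widest gap between the groups.

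With Mi-2, PHLDA1, SPRY4 and ETV5 fell and the other 7 genes did not pass the test. In the edgeR quasi-likelihood test across all 16082 tested genes, at a Benjamini-Hochberg adjusted p under 0.05, 3 of 10 members were called lower, where 6.03% of all tested genes were lower. None was called higher, where 5.02% of all tested genes were, and none was higher at an unadjusted p under 0.05 or by any of the other fits, DESeq2 and limma among them. At an unadjusted p under 0.05, 6 of the 10 were lower, where 14.1% of all tested genes were lower and 12.9% higher. The log2 fold change was negative for 9 of the 10 (8 under upper-quartile scaling, where SPRY2 was 0.02, and SPRY2 was also above 0 without control 2, treated library 2 or treated library 3), with a median of -0.32 beside 0.005 over all tested genes. For 6 members the lowest control was above the highest treated library in CPM, against 16.6% of all tested genes lower and 15.7% higher with ranges apart in that way. No member was higher with ranges apart. In bulk RNA, fewer cells with a transcript and less of it per cell cannot be told apart. The count of members called was 1 without treated library 1, and 1 by limma on log2(TPM + 1), PHLDA1 in both. Calls over all tested genes dropped in these fits too. Without treated library 1, 302 of 16481 genes were called lower, and by limma 381 of 13981, against 969 in the main fit. Without treated library 1 the log2 fold changes of SPRY4 (-0.64) and ETV5 (-0.57) were close to those of the main fit (-0.63 and -0.53). By limma on log2(TPM + 1) the value of ETV5 was also close (-0.48, adjusted p = 0.111). That of SPRY4 was much smaller there (-0.13, limma adjusted p = 0.755), so its fall was seen in counts only.

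**Figure D2:**
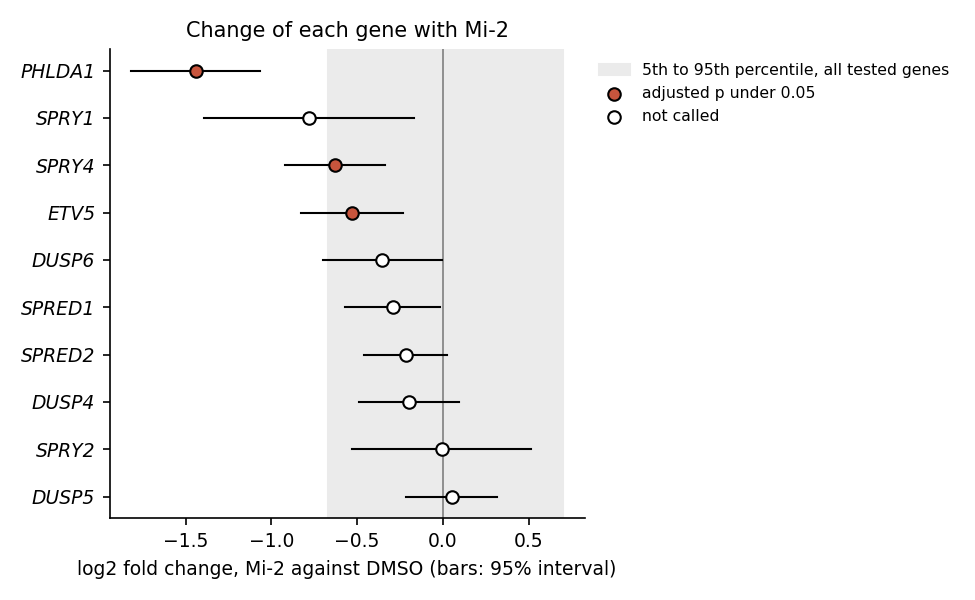
Log2 fold change of each gene, Mi-2 against DMSO, with its 95% interval from edgeR. Filled points passed an adjusted p of 0.05, and the band spans the 5th to 95th percentile of all tested genes (-0.67 to 0.70). PHLDA1 lies outside that band with its whole interval.

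PHLDA1 encodes a pleckstrin homology-like protein that is induced by ERK and in turn restrains growth factor signalling. It is on the minus strand of chromosome 12, at 76025447 to 76033932 in GENCODE 29 (GRCh38). It had 21.9, 19.2 and 25.5 CPM in controls 1 to 3 and 8.17, 6.64 and 9.69 CPM in treated libraries 1 to 3. All treated libraries were far under all controls. The mean went from 22.2 ± 3.19 to 8.16 ± 1.52 CPM, 2.72-fold lower (log2 fold change -1.44 ± 0.17 SE, edgeR adjusted p = 0.00240). The 95% interval of the fall ran from 2.1-fold to 3.52-fold. With any library left out the call held, with adjusted p up to 0.0150. In TPM the fall was from 4.57 ± 0.425 to 1.69 ± 0.307, and counts per TPM, a measure of the length the authors' software assigned, varied only 1.01-fold between libraries. The antisense genes PHLDA1-AS1 and PHLDA1-DT overlap its exons and had 0 and 6 counts in all libraries together.

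ETV5, which encodes an ETS-family activator that ERK signalling induces, fell by less. It lies on the minus strand of chromosome 3, at 186046308 to 186110318. Its levels were 37.3, 27.8 and 33.8 CPM in controls 1 to 3 and 24.2, 20.05 and 24.2 CPM in treated libraries 1 to 3. The groups did not overlap, but control 2 was close to the highest treated libraries. The mean went from 33.0 ± 4.82 to 22.8 ± 2.39 CPM, 1.44-fold lower (-0.53 ± 0.13, edgeR adjusted p = 0.0326). The call was lost without control 1 (adjusted p 0.0896), control 3 (0.0967), treated library 1 (0.0799) or treated library 2 (0.0899), and in limma on log2(TPM + 1) (0.111). DGKG, a diacylglycerol kinase gene, shares exonic sequence with ETV5 on the same strand in the annotation. It had 10.8 ± 0.359 CPM in controls and 8.12 ± 0.776 CPM in treated libraries and was not called (-0.42 ± 0.13, edgeR adjusted p = 0.0773). The antisense gene ETV5-AS1 had 1 count in all libraries together.

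SPRY4 was the Sprouty gene that passed the test. Sprouty proteins are induced by growth factors and block signalling from receptors to RAF. The gene is on the minus strand of chromosome 5, at 142310427 to 142326455. It had 10.99, 11.1 and 10.01 CPM in controls 1 to 3 and 6.99, 6.81 and 6.96 CPM in treated libraries 1 to 3. The treated libraries were nearly equal and well under the controls, from 154 to 252 counts per library. The mean went from 10.7 ± 0.615 to 6.92 ± 0.0943 CPM, 1.55-fold lower (-0.63 ± 0.13, edgeR adjusted p = 0.0166). Without control 2 or treated library 1 it was not called (adjusted p 0.0652 and 0.0638).

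The fall of SPRY4 was seen in counts and not in TPM. TPM values were 3.06, 3.02 and 2.64 in controls 1 to 3 and 3.47, 2.63 and 1.82 in treated libraries 1 to 3, so the groups overlapped. Limma on log2(TPM + 1) gave -0.13 (adjusted p = 0.755). Counts per TPM, set to a mean of 1 over the libraries for each gene after dividing by each library's median over genes, follow the transcript length that the authors' estimates assigned. For SPRY4 they were 1.12, 1.18 and 1.10 in controls and 0.635, 0.796 and 1.16 in treated libraries. Treated libraries 1 and 2 stood apart from the other 4. The highest was 1.86 times the lowest, a ratio larger than in 96.0% of 12503 genes compared, whose median was 1.13. GENCODE 29 holds 6 SPRY4 transcripts of 546 to 5349 bases. Which transcripts were present was not tested, and the antisense gene SPRY4-AS1 had 13 counts in all libraries together.

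**Figure D3:**
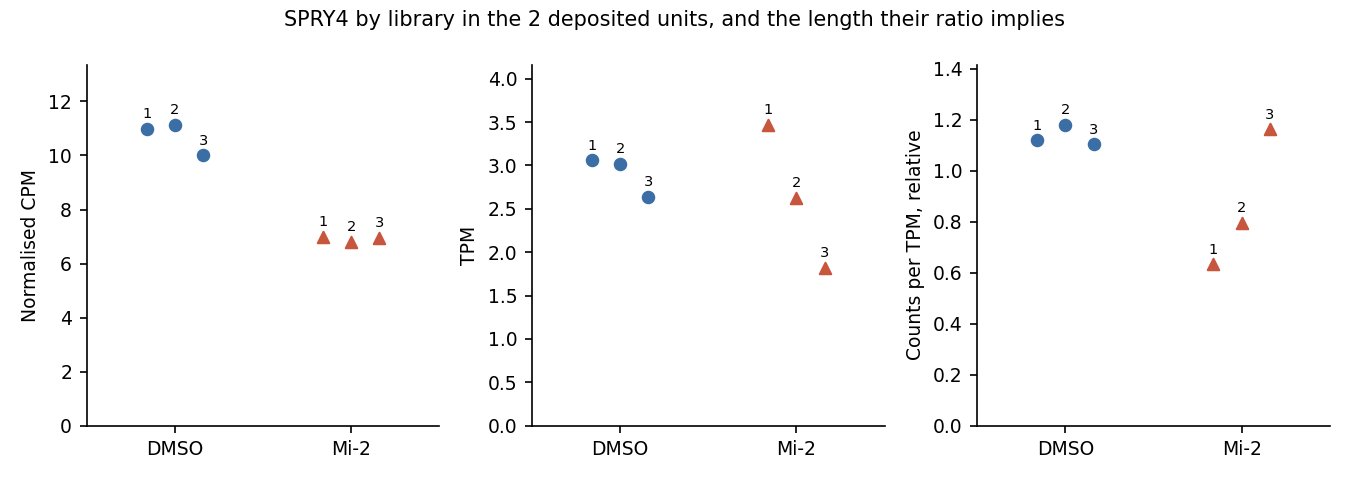
SPRY4 in each library as normalised CPM, as deposited TPM, and as counts per TPM relative to the gene's mean over libraries (numbers are library numbers). In CPM the groups are separate (6.81 to 6.99 against 10.01 to 11.1), in TPM they overlap, and counts per TPM are lowest in treated libraries 1 and 2.

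SPRY1 and SPRY2, the other Sprouty genes measured, had few counts. SPRY1 (chromosome 4, 123396795 to 123403760, plus strand) had 2.63, 3.98 and 2.90 CPM in controls 1 to 3 and 1.41, 2.20 and 1.93 CPM in treated libraries 1 to 3, from 31 to 90 counts per library. The groups did not overlap, and the value of -0.78 ± 0.27 (1.72-fold) was larger than that of SPRY4. It did not pass (edgeR adjusted p = 0.0977), with a 95% interval from 1.13-fold to 2.62-fold lower. SPRY2 (chromosome 13, 80335976 to 80340951, minus strand) had 2.19, 2.92 and 2.26 CPM in controls and 2.59, 2.37 and 2.39 CPM in treated libraries. The groups overlapped fully. Its log2 fold change of -0.01 ± 0.23 left a 95% interval from 1.44-fold lower to 1.43-fold higher, and that interval reaches close to the 1.55-fold of SPRY4.

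SPRED1 and SPRED2 encode membrane-bound proteins that bring the RAS inhibitor neurofibromin to RAS. SPRED1 (chromosome 15, 38252326 to 38357249, plus strand) had 30.8, 27.5 and 26.6 CPM in controls 1 to 3 and 26.2, 23.3 and 19.9 CPM in treated libraries 1 to 3. SPRED2 (chromosome 2, 65310851 to 65432637, minus strand) had 20.5, 22.1 and 20.5 CPM in controls and 17.3, 17.4 and 19.6 CPM in treated libraries. In both genes each treated library was under each control, by a small margin. Neither passed the test, with SPRED1 at -0.29 ± 0.12 (edgeR adjusted p = 0.162) and SPRED2 at -0.22 ± 0.11 (0.234). The 95% intervals allowed falls of up to 1.48-fold and 1.37-fold.

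None of the 3 phosphatase genes passed the test. DUSP5 (chromosome 10, 110497838 to 110511544, plus strand) had 590.4, 551 and 469 CPM in controls 1 to 3 and 610.4, 577 and 481 CPM in treated libraries 1 to 3. The groups overlapped nearly completely, and library 3 was lowest in each. Its log2 fold change was 0.05 ± 0.12 (edgeR adjusted p = 0.829), with a 95% interval from 1.16-fold lower to 1.25-fold higher. DUSP4 (chromosome 8, 29333064 to 29350668, minus strand) had 172, 132 and 136 CPM in controls and 138, 109 and 137 CPM in treated libraries. Its value was -0.20 ± 0.13 (edgeR adjusted p = 0.366), and the interval reached 1.40-fold lower and 1.07-fold higher.

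DUSP6, the cytoplasmic ERK phosphatase most often used as a readout of the pathway (chromosome 12, 89347232 to 89353271, minus strand), was lower without passing the test. It had 149, 100.3 and 113 CPM in controls 1 to 3 and 111, 82.9 and 90.4 CPM in treated libraries 1 to 3. Control 1 was the highest of all, and treated library 1 lay between the controls. The mean went from 121 ± 25.4 to 94.7 ± 14.4 CPM (-0.35 ± 0.15, edgeR adjusted p = 0.177), with a 95% interval from 1.00-fold to 1.62-fold lower. With no low-count filter it was called lower by edgeR (adjusted p = 0.00986). It was called in 2 of the 11 alternatives that kept all libraries, and not by DESeq2 (adjusted p = 0.103). With any library left out it was not called (edgeR adjusted p 0.132 to 0.465). An unnamed antisense gene (ENSG00000274021) overlaps exons of DUSP6. It had 4.36 ± 1.66 CPM in controls and 2.87 ± 0.457 CPM in treated libraries and was not called (-0.60 ± 0.28, edgeR adjusted p = 0.206). Whether counting used strand is not given in the sources used here, so reads of the pair cannot be told apart.

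**Figure D4:**
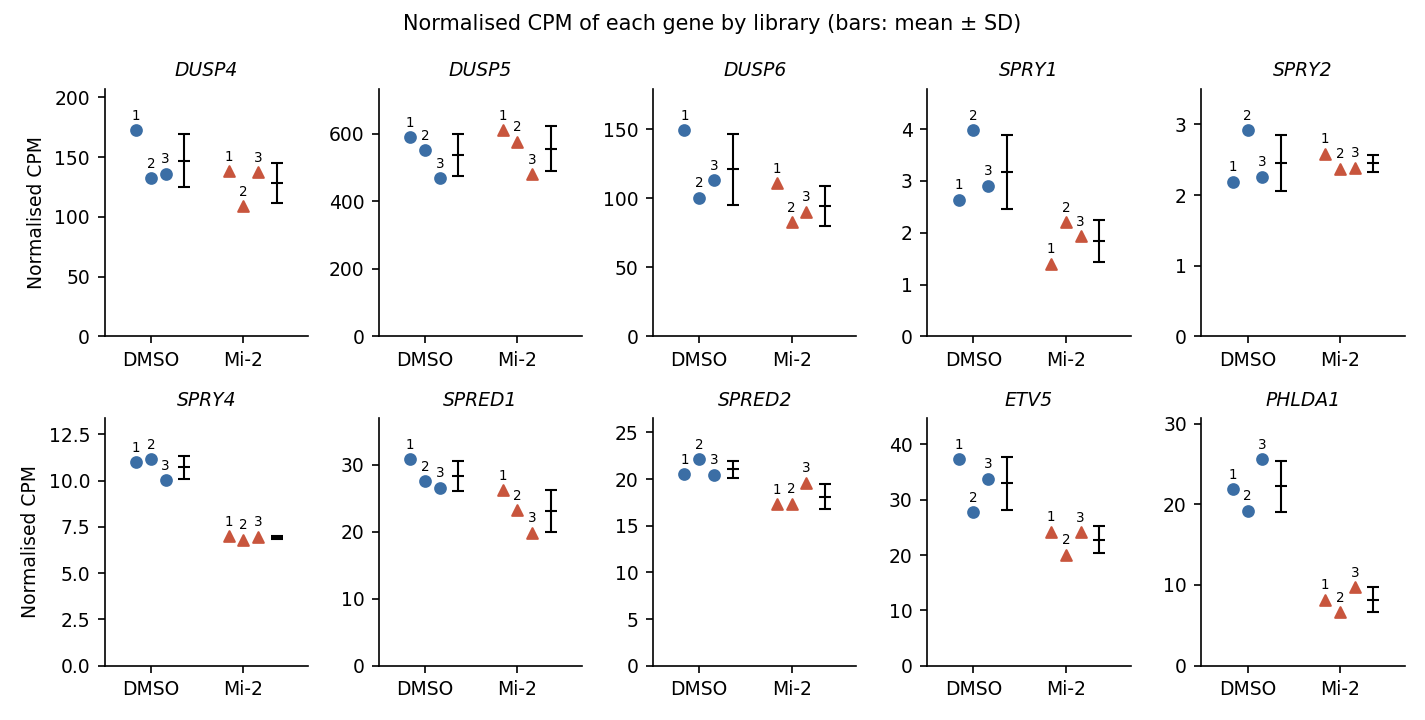
Normalised CPM of each gene in each library (numbers are library numbers), with mean ± SD beside each group of 3 and every axis starting at 0. PHLDA1 (19.2 to 25.5 against 6.64 to 9.69 CPM) and SPRY4 have the clearest gaps between groups, and DUSP5 and SPRY2 the least.

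A ratio of 2 genes within a library does not depend on scaling between libraries. Ratios to DUSP6 were taken only for the 3 members already called lower. DUSP6 itself had a log2 fold change of -0.35 ± 0.15, so each ratio differs by less than its gene alone. An overlap of ratios therefore does not show that a fall depends on scaling. PHLDA1 had 14.7, 19.1 and 22.6 counts per 100 of DUSP6 in controls 1 to 3 and 7.37, 8.01 and 10.7 in treated libraries 1 to 3, a log2 difference of -1.11 with no overlap (exact permutation p = 0.1, two-sided, the smallest that 3 against 3 allows). For ETV5 the ratio was 25, 27.7 and 30 in controls and 21.9, 24.2 and 26.7 in treated libraries, which overlapped (-0.18, exact permutation p = 0.2). For SPRY4 it was 7.36, 11.1 and 8.86 in controls and 6.31, 8.22 and 7.70 in treated libraries, which also overlapped (-0.29, exact permutation p = 0.3). Adjusted over these 3 comparisons each p was 0.3. No comparison of this size can reach a p of 0.05.

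NFKBIA, the NF-κB inhibitor that NF-κB induces, had 25.3, 128 and 77.6 CPM in controls 1 to 3, and TNFAIP3, another induced inhibitor, had 14.6, 79.0 and 69.7 CPM. In treated libraries 1 to 3 NFKBIA had 22.9, 48.0 and 41.1 CPM and TNFAIP3 had 8.94, 24.1 and 29.8 CPM, and neither gene passed the test. They belong to a list of 10 NF-κB reference genes, all 10 with negative values (median log2 fold change -0.90, beside 0.005 over all tested genes). None of the 10 was called, and in none were the ranges of the groups apart. Of all tested genes 6.03% were called lower, and 16.6% were lower with ranges apart. At these shares 10 genes hold few calls, so the lack of calls is not read as a trait of the list. At an unadjusted edgeR p under 0.05, 6 of the 10 were lower, where 14.1% of all tested genes were. In control 1, where NFKBIA and TNFAIP3 were lowest among controls, DUSP4, DUSP5, DUSP6, SPRED1 and ETV5 had their highest control values. SPRY1, SPRY2, SPRY4 and SPRED2 were highest in control 2 and PHLDA1 in control 3. How many of all tested genes were highest in each control was not counted, so no pattern particular to the members can be read from this. Whether the 2 patterns are related was not tested.

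Other genes known to respond to ERK moved both ways. Of 33 listed, 27 were tested, and 6 were called lower and 3 higher, with a median log2 fold change of -0.12. Over all tested genes 6.03% were called lower and 5.02% higher, with a median of 0.005. EGR1, an immediate early transcription factor, had the largest called fall (5.19 ± 1.23 to 1.58 ± 0.766 CPM, -1.71 ± 0.34, edgeR adjusted p = 0.0137). ETV4, a close relative of ETV5, went from 29.6 ± 3.32 to 13.4 ± 5.27 CPM (-1.14 ± 0.23, edgeR adjusted p = 0.0153), a larger value than that of ETV5, though the difference was not tested. TRIB1, a pseudokinase gene (-0.46 ± 0.11), and MYC (-0.46 ± 0.10) fell too, as did SLCO4A1 (-0.43 ± 0.08) and the cyclin gene CCND1 (-0.41 ± 0.09), both named after their values were seen. SLCO4A1 held with any library left out, and CCND1 was lost without control 1, control 2 or treated library 1 (adjusted p up to 0.0725). Neither was called by limma on TPM (adjusted p up to 0.158 and 0.38). The rises were in PROS1, which encodes protein S (0.89 ± 0.22), the ETS factor gene ELK3 (0.66 ± 0.15) and KANK1 (0.45 ± 0.10). The counts were 2 lower and 0 higher without control 2, 3 and 0 without control 3, 1 and 0 without treated library 1, and 3 and 0 without treated library 2. Calls over all tested genes dropped as well, to 390 lower and 246 higher without control 2 and 302 and 216 without treated library 1. EGR1 lost its call without control 3 or treated library 1 (adjusted p up to 0.0614). ETV4, MYC, ELK3 and KANK1 each lost theirs without control 2, control 3, treated library 1 or treated library 2 (up to 0.0571, 0.0809, 0.0987 and 0.101). TRIB1 kept its call only without control 3 and PROS1 only without treated library 3 (otherwise up to 0.105 and 0.126).

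Genes of the cascade above ERK moved both ways, with 5 called higher and 1 lower of 28 tested and a median of 0.11. Of all tested genes 5.02% were called higher and 6.03% lower, with a median of 0.005. RRAS, a RAS relative, rose from 4.31 ± 0.398 to 9.77 ± 1.77 CPM (1.18 ± 0.18, edgeR adjusted p = 0.00589). SHC1, an adaptor between receptors and RAS, went from 338 ± 39.2 to 667 ± 57.7 CPM (0.98 ± 0.11, edgeR adjusted p = 0.00217). RASGRP3 (0.76 ± 0.09) and SOS1 (0.46 ± 0.10), whose proteins load RAS with GTP, rose, and so did SOS2 (0.44 ± 0.12), named after its values were seen, whose call was lost with any library left out (adjusted p 0.0605 to 0.141). The single fall was in the receptor tyrosine kinase gene FGFR3, from 510 ± 6.48 to 308 ± 10.7 CPM (-0.72 ± 0.08, edgeR adjusted p = 0.00209). The calls of RRAS, SHC1, RASGRP3 and FGFR3 held with any library left out. SOS1 was not called without control 1, control 3, treated library 1 or treated library 2 (adjusted p up to 0.0908), and 3 cascade genes were called higher without each of those 4 libraries in turn. Without control 2 there were 2 cascade genes called lower, FGFR3 and NRAS. No RAF or MEK gene in the list passed the test. MAP2K1 and MAP2K2, which encode MEK, had values of 0.15 ± 0.09 and 0.28 ± 0.08. NRAS stood at 447 ± 82.1 CPM in controls and 337 ± 24.1 CPM in treated libraries and was not called (-0.41 ± 0.13, edgeR adjusted p = 0.0764). These cascade genes without a call were named after their values were seen.

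Among 20 other negative regulators tested, 3 were called higher and none lower, and none was lower at an unadjusted p under 0.05. DESeq2 and limma also called none lower. Of all tested genes 5.02% were called higher and 6.03% lower, and 14.1% were lower at an unadjusted p under 0.05 (edgeR). CBLB, a ubiquitin ligase gene, rose from 6.86 ± 0.351 to 11.9 ± 0.733 CPM (0.79 ± 0.13, edgeR adjusted p = 0.00757), and this held with any library left out. NF1, which encodes neurofibromin, the partner of SPRED proteins, rose (0.48 ± 0.09), as did CIC, a repressor of the ETV genes that ERK inactivates (0.39 ± 0.09). NF1 was not called without control 3 or treated library 1 (adjusted p up to 0.0620), where 1 regulator was called. CIC was called only without treated library 2 (otherwise up to 0.0880). Among 14 other dual-specificity phosphatase genes tested, DUSP18 (0.80 ± 0.20) and DUSP22 (0.38 ± 0.08) were called higher and none lower, with 1 lower at an unadjusted p under 0.05. DESeq2 and limma called none lower. At the shares of all tested genes, lists of 20 and 14 genes hold few calls, so the lack of lower calls is not read as a trait of either list. The count of rises among these phosphatase genes was 1 without control 2 or treated library 2 and 0 without control 3 or treated library 1. Over all tested genes, 275 were called higher without control 3 and 216 without treated library 1, against 808 in the main fit. Of the phosphatase genes 1, DUSP2, was called lower without control 3. DUSP22 lost its call without control 3 or treated library 1 (adjusted p up to 0.0787), and DUSP18 without either of these, control 2 or treated library 2 (up to 0.112). DUSP1, an immediate early phosphatase gene named after its values were seen, had 7.52 ± 0.965 CPM in controls and 7.68 ± 1.00 CPM in treated libraries.

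**Figure D5:**
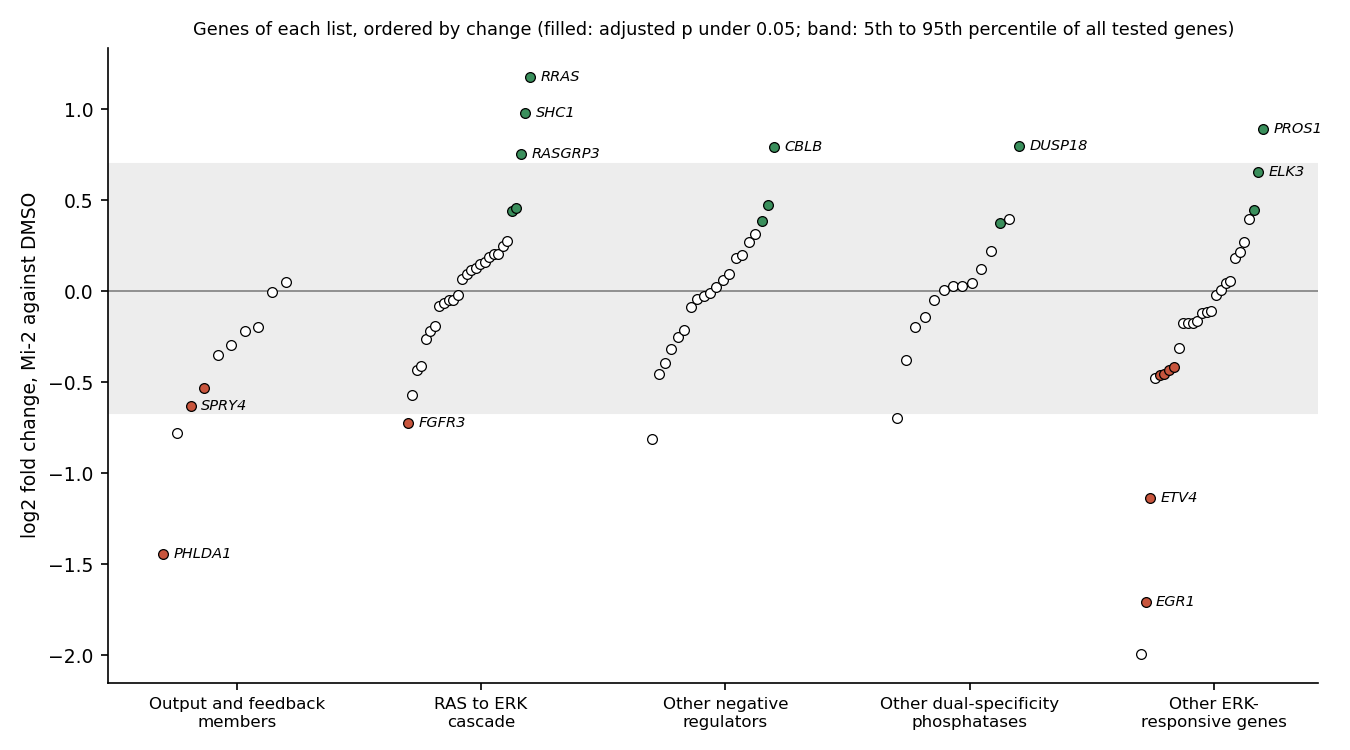
Log2 fold change of every tested gene in the 10 members and the 4 other pathway lists, in order of size within each list. Filled points passed an adjusted p of 0.05 (red lower, green higher), called genes past 0.6 in size are named, and the band spans the 5th to 95th percentile of all tested genes. Among called genes PHLDA1, ETV4 and EGR1 lie farthest below the band and RRAS and SHC1 farthest above it, and others lie outside it too. The lowest point is the ERK-responsive gene IER3 (-1.99), which was not called and was named after its values were seen.

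The profiles of the called members over the 6 libraries were compared with those of 10886 other genes by the root mean squared difference of centred log2 CPM. The genes nearest to PHLDA1 were STS, the steroid sulfatase gene (0.122), and LCAT, a cholesterol-esterifying enzyme gene (0.141). Nearest to SPRY4 were TELO2 (0.0328) and UTP18, a ribosome biogenesis gene (0.0372). Nearest to ETV5 were MAP2K6, a kinase of the p38 branch (0.0523), and PC, which encodes pyruvate carboxylase (0.0555). With 6 libraries in 2 groups these distances mostly describe the size of the difference between the groups. All but MAP2K6 were called lower, and PC was not called without control 1, control 3, treated library 1 or treated library 2 (adjusted p up to 0.108). As these genes were chosen for nearness to members called lower, their lower calls follow largely from that choice.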

How the data were processed

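Per the submitters' processing notes, fastp 0.19.5, HISAT2 2.1.0, StringTie 2.1.0, RSEM 1.3.3 and the build GRCh38.p13 were used, with no roles given. The authors deposited estimated counts per gene (12.8% of values not whole, not scaled between libraries) and, in a second deposited table, TPM values, which are corrected for length. Ensembl IDs were named from a reference table, and GENCODE 29 gave coordinates.

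Counts were rounded, filtered with filterByExpr (minimum count 10, total 15) and scaled by TMM. Treated and control libraries were compared over all 16082 genes with edgeR's quasi-likelihood test (version 4.0.16, R 4.3.3), with no other term, with Benjamini-Hochberg adjustment and a threshold of 0.05. The biological coefficient of variation was 14.2%. Each standard error was derived from the F statistic of its gene. Within-group pairs of libraries differed by 16.6 to 23.4 times the chi-square per degree of freedom of counting alone, so none was a copy.

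The members and lists were chosen with earlier results of these data known. Named genes were all members, up to 4 called genes in each direction of a list (average log2 CPM 1 or more), the 2 nearest profiles (average log2 CPM 2 or more, 0.5 added to CPM) of each called member, overlapping genes, and NFKBIA, TNFAIP3, TNFRSF17 and SDC1. Alternatives were RLE and upper-quartile scaling, removal of immunoglobulin and the 20 highest-count genes, DESeq2 1.42.0, limma-voom (limma 3.58.1), other filters, limma on log2(TPM + 1 or 0.1) with or without a mean TPM of at least 1, a block for library number, and leaving out every library in turn. TPM folds, on the log2(TPM + pseudocount) scale, understate changes of low genes.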

Additional observations from a re-analysis of the deposited data

How the results depend on the processing

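Under RLE or upper-quartile scaling, without the immunoglobulin and 20 highest-count genes, by DESeq2, by limma-voom and with a filter of 1 CPM, PHLDA1, SPRY4 and ETV5 were the members called lower. Without a filter on low counts 1221 genes were called higher and 1541 lower, with 4 members (DUSP6 added), 3 cascade genes and 1 other dual-specificity phosphatase gene lower. DESeq2 called 2 cascade genes lower. Limma on log2(TPM + 1) called 229 genes higher and 381 lower, and on log2(TPM + 0.1) 249 and 398. In both, 1 member (PHLDA1) and 1 other ERK-responsive gene (MYC) were lower, and 0 other negative regulators and 0 ERK-responsive genes higher. Of the other phosphatase genes 0 and 1 were higher. With no TPM filter limma called 0 genes in either direction, members and lists included, although 1836 were higher and 1972 lower at an unadjusted p under 0.05.

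The library numbers name no stated pairs. Deviations from group means correlated at 0.478, 0.075 and 0.304 between libraries of the same number, under the limit of 0.1 for number 2, although every library correlated best with its own number. With the replicate block 1791 genes were called higher and 2035 lower, 6 members lower (DUSP6, SPRY1 and SPRED1 added), and 5 cascade genes, 2 other negative regulators and 1 other phosphatase gene lower. SPRY2 was 0.00225 with it and 0.02 with upper-quartile scaling.

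With a library left out, 216 to 715 genes were called higher and 302 to 866 lower. Of members, 1 to 3 were lower. Cascade genes gave 3 to 4 higher and 1 to 2 lower, other negative regulators 1 to 3 higher, other phosphatase genes 0 to 2 higher and 0 to 1 lower, and ERK-responsive genes 0 to 3 higher and 1 to 5 lower. DUSP5 ran from -0.05 to 0.15 and SPRY2 from -0.08 to 0.14. Genes with few counts, such as SPRY1 and SPRY2, limit what could be detected.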
